A study of Mus musculus with 8 samples.

Results

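The Bcl2 family decides whether a cell's mitochondria stay intact under stress, and 10 of its genes are described here in mouse preadipocytes with and without the virus meant to delete Dicer. The members were taken by symbol, as all probe sets whose platform annotation gives exactly 1 symbol and that symbol is Bcl2, Bcl2l1, Mcl1, Bak1, Bok, Bcl2l11, Bid, Bad, Bik or Bmf. That rule gave 34 probe sets of the 45101 on the array, for 10 of the 18193 genes named in this way. Preadipocytes, stromal cells that can mature into fat cells, came from subcutaneous fat of C57BL/6 newborns on day 2. All cells carried the genotype Dicer lox/lox, in which Cre recombinase can excise part of the gene for the ribonuclease that makes mature microRNAs. The 4 control samples received an adenovirus coding for GFP (Ad5CMVeGFP) and the 4 Dicer knockout samples one coding for Cre and GFP (Ad5CMVCre-eGFP), each at 750 MOI with 4 µg/mL polybrene, in DMEM with 10% fetal bovine serum, and RNA was taken 4 days later. Both virus names give the CMV promoter, which is not specific to a cell type. Of the 8 samples, 0 came from cells given Cre virus but lacking the lox sites, so effects of Cre and of Dicer loss cannot be told apart in any difference below.

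In the mitochondrial pathway of apoptosis, anti-apoptotic members of the family hold its effector proteins in check. Effectors that are released form pores in the outer mitochondrial membrane, through which cytochrome c escapes and activates caspases. BH3-only proteins, named for the single homology domain they share with the family, are the stress sensors that bind the anti-apoptotic members or switch on the effectors. Several messenger RNAs of the family are known microRNA targets. Bcl2l11 is a textbook target of the miR-17-92 cluster, Bcl2 of miR-15, miR-16 and miR-34, Mcl1 of miR-29, Bcl2l1 of let-7 and Bak1 of miR-125b. The comparison asks whether these messenger RNAs differ in level after the virus meant to end microRNA maturation.

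The mature sequences of 9 such microRNAs are shown because they are products of the enzyme targeted here. In textbook accounts they pair with messenger RNAs of the members through the seed. Each runs 5′ to 3′ as RefSeq gives it on GRCm38.p6, and the capitals mark the seed, bases 2 to 8.
mmu-miR-17-5p: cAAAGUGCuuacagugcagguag
mmu-miR-20a-5p: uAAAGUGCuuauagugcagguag
mmu-miR-92a-3p: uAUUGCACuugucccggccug
mmu-miR-15a-5p: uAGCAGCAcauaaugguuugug
mmu-miR-16-5p: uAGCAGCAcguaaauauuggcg
mmu-miR-34a-5p: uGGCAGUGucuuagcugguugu
mmu-miR-29b-3p: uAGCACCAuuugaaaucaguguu
mmu-let-7c-5p: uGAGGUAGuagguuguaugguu
mmu-miR-125b-5p: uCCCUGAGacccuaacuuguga
The 9 microRNAs hold 7 different seeds. One is shared by miR-17-5p and miR-20a-5p, which lie at chr14:115043684-115043706 and chr14:115044183-115044205 on the plus strand, and one by miR-15a-5p and miR-16-5p, which have neighbouring loci on the minus strand of the same chromosome. The arrays measured messenger RNAs, so the levels of these microRNAs, and sites for them in the members' transcripts, were not analysed here.

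Each array gave MAS5 signals, linear values in arbitrary units, with a median of 321.1 to 418.9 over its probe sets. The number of arrays limits the precision. The labels call the samples biological replicates but do not say whether a replicate is an animal, a culture or a day. The p-values therefore set a difference against the spread among these samples only, and may not extend to other animals. Of 10 preadipocyte and fibroblast markers 9 were found, all bright, with summed signals of 320586 to 391498 in controls and 294234 to 354453 in knockouts. Adipoq (adipocytes), Ptprc (leukocytes), Pecam1 (endothelium) and Cdh1 (epithelium) were among the dimmest 40% of probe sets, whereas Fabp4, Cd68, Kdr and Epcam lay above that limit. Summed signals of the keratinocyte and epithelium list were 1781.4 to 2489.3 in controls and 2280.3 to 3167.3 in knockouts, and those of the skeletal muscle list 1913.7 to 3134.7 and 2728.1 to 3805, and their part in the results below was not tested. The brighter Dicer1 probe set (1460571_at) read 1152.7, 1140.7, 2113.7 and 1190.3 on controls 1 to 4. It read 1158.3, 1190.4, 1403.8 and 1110.1 on knockouts 1 to 4. The dimmer (1427941_at) read 620.9, 889, 1045.1 and 391 in controls and 753.8, 563.8, 487.8 and 502.2 in knockouts. Their log2 differences, knockout minus control, were -0.15 (SE 0.20) and -0.26 (SE 0.27). The groups thus overlapped at the targeted gene in both. A probe set outside the excised part would not check the deletion, and the place of either was not analysed here. Odd-numbered and even-numbered replicates of both groups differed in the 18S ribosomal RNA 5′ probe set (5905.9 to 14007.2 against 30583.9 to 43029.9), so differences within each set are given beside some results. In RNA from whole cultures, fewer cells with a transcript and less of it per cell cannot be told apart.

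No member of the family passed the test. Of the 25 member probe sets bright enough to be tested, 0 were called by the unpaired limma fit at a Benjamini-Hochberg adjusted p under 0.05, beside 0.0037% of all 27026 probe sets tested. The adjusted p was 0.999 for each of the 25. The fit that pairs same-numbered samples also called 0 of 25, beside 0.0481% of all, with a lowest member adjusted p of 0.458. At an unadjusted p under 0.05 there was 1 member probe set in the unpaired fit, beside 3.77% of all, and there were 2 in the paired fit, beside 9.14%. In 0 of the 25 did the knockout values lie entirely on either side of the control values, beside 2.46% of all. Of the 25, 15 had a log2 difference (knockout minus control, on log2 of signal plus 73.1) above 0, beside 51.3% of all.

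Intervals of the members were about as wide as those of other probe sets. The 95% interval of the difference, not adjusted for the number of probe sets, lay inside a 2-fold change either way in 23 of the 25 member probe sets, beside 88.3% of all, and inside a 1.5-fold change in 15 of them, beside 52.6%. For a gene represented by its brightest tested probe set, 9 of the 10 members lay inside 2-fold, beside 90.8% of all genes tested, and 7 inside 1.5-fold, beside 60.9%. These shares are near the background and are no result about the members. The median log2 difference of the 10 members was -0.04, against -0.0020 over all 13259 genes tested, and it was 0.06 without knockout array 1. Over all 25 probe sets the median was 0.07, so the sign of the members' median depended on which probe sets stood for them.

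**Figure D1:**
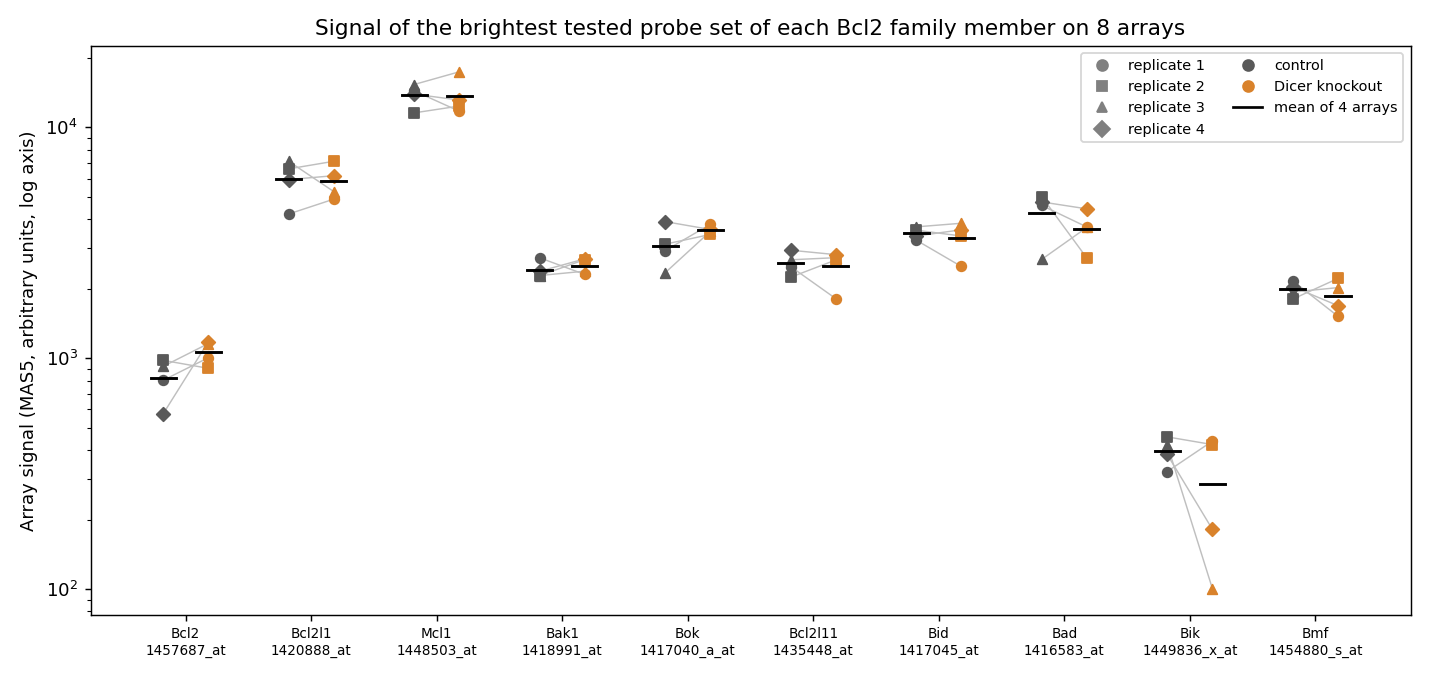
Array signal (log axis, arbitrary units) of the brightest tested probe set of each member, with 4 control arrays in grey and 4 Dicer knockout arrays in orange; marker shapes give the replicate number, grey lines join same-numbered arrays and black bars are means. The groups overlap in all 10 members, from Mcl1 with means of 13813 and 13674 to Bik with means of 396 and 285.

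Among the anti-apoptotic members, Mcl1 codes for a short-lived survival protein and was read by 6 tested probe sets. The brightest (1448503_at) read 14404.3, 11563.4, 15345.8 and 13936.9 on controls 1 to 4 and 11751.9, 12380.3, 17422.7 and 13139.5 on knockouts 1 to 4. Knockout 3 lay above every control and the other knockouts lay among them, and the log2 difference was -0.02 (SE 0.14, 95% interval -0.32 to 0.28, limma adjusted p = 0.999). The other 5 had differences of 0.07 to 0.19. Of these, 1456243_x_at read 6190.9, 8213.7, 8140.7 and 7419.9 in controls and 7364.2, 7823.4, 9697.5 and 9476.8 in knockouts. It was higher in 3 of 4 pairs (log2 difference 0.19, SE 0.13, interval -0.09 to 0.48), and its unadjusted p of 0.0470 in the paired fit became 0.541 after limma's adjustment. Its name ends in _x_at, which marks a probe set with probes that can match other sequences, as do those of 2 more Mcl1 probe sets (1437527_x_at and 1456381_x_at). All 6 Mcl1 intervals lay inside a 1.5-fold change, beside 52.6% of all probe sets tested. These 6 were bright, at percentiles 82 to 97 by mean signal, and the share among probe sets of like brightness was not computed.

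Bcl2l1, which codes for the survival protein Bcl-xL, had 2 tested probe sets. The brighter (1420888_at) read 4215.9, 6612.7, 7136.8 and 5942.1 in controls and 4890.7, 7134.1, 5272.2 and 6179.1 in knockouts. Array 1 was the lowest of its group in both, and the means of 5977 ± 1272 in controls and 5869 ± 1002 in knockouts (SD over 4 arrays) differed by less than the spread (log2 difference -0.01, SE 0.17, interval -0.39 to 0.36). The dimmer (1420887_a_at) averaged 683 ± 103 against 743 ± 147 (SD, n = 4 each), a log2 difference of 0.10 (SE 0.19). Both probe sets were higher in 3 of 4 pairs, with pair 3 lower in each.

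Bcl2 itself, the founding survival gene of the family, gave the largest positive differences among the tested member probe sets, and its probe sets differed among themselves. The brightest (1457687_at) read 802.4, 979.7, 921.9 and 573.8 in controls and 1005.2, 904.4, 1157.5 and 1178.2 in knockouts. All knockouts but the second lay above every control, and control 4 was the lowest of the 8 (log2 difference 0.36, SE 0.18, interval -0.04 to 0.76, adjusted p = 0.999 by limma, exact two-sided permutation p = 0.0857). The difference was 0.22 without control 4, and 0.17 in the paired fit without pair 4. Another (1437122_at) read 361.9, 148.9, 384.4 and 271.1 in controls and 579.9, 333.1, 419 and 579.8 in knockouts. It was higher in 4 of 4 pairs and is the member probe set with an unadjusted p under 0.05 in the unpaired fit (log2 difference 0.62, SE 0.28, interval 0.01 to 1.23, unadjusted limma p = 0.0474, adjusted 0.999, exact two-sided permutation p = 0.0857; the smallest that 4 against 4 arrays can give is 0.0286). In the paired limma fit its interval was 0.10 to 1.15 and its unadjusted p 0.0244. The adjusted p of 0.458 there was the lowest of the tested member probe sets. Odd-numbered replicates alone gave 0.35 and even-numbered ones 0.90, and without control 2 the difference was 0.40. The third (1422938_at) read 358.2, 779.6, 1005.2 and 426.9 in controls and 766.3, 444.4, 674.3 and 500.6 in knockouts. Its controls spanned a wider range than its knockouts, and its log2 difference was -0.02 (SE 0.29, interval -0.66 to 0.62).

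The arrays' pattern for 1437122_at was set beside that of all 13258 other genes, each by its brightest tested probe set, by Pearson correlation of log2 values over the 8 arrays. The closest were Eldr (r = 0.939), Sbno2 (0.918), Otud3 (0.893), Rpap3 (0.892) and Helz2 (0.889). Being the highest of 13258 correlations over 8 arrays, these values are a description. Log2 differences of these 5 genes were 0.31 (SE 0.24), 0.43 (SE 0.22), 0.16 (SE 0.13), 0.12 (SE 0.12) and 0.25 (SE 0.13) in the same order.

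The effectors were represented by Bak1, a pore-forming protein of the outer mitochondrial membrane, and Bok, a less studied relative. The brighter Bak1 probe set (1418991_at) read 2723.8, 2280.6, 2282.1 and 2381.1 in controls and 2306.6, 2676.3, 2383.7 and 2695.4 in knockouts. Control 1 was the highest of all 8 arrays, and Bak1 had one of the narrowest intervals among the members (log2 difference 0.06, SE 0.12, interval -0.21 to 0.32). The dimmer (1425716_s_at) averaged 479 ± 137 against 389 ± 128 (SD, n = 4 each), a log2 difference of -0.27 (SE 0.27, interval -0.86 to 0.32). Bok (1417040_a_at) read 2925.7, 3120.6, 2346.3 and 3908 in controls and 3804.7, 3438, 3546.6 and 3613.2 in knockouts. The knockouts lay within a narrow band above 3 of the controls and below the fourth, with SDs of 154 in knockouts and 645 in controls. The log2 difference of Bok was 0.24 (SE 0.15, interval -0.08 to 0.57, adjusted p = 0.999 by limma, exact two-sided permutation p = 0.171), with 0.48 from odd-numbered and 0.01 from even-numbered replicates alone and 0.13 without control 3.

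**Figure D2:**
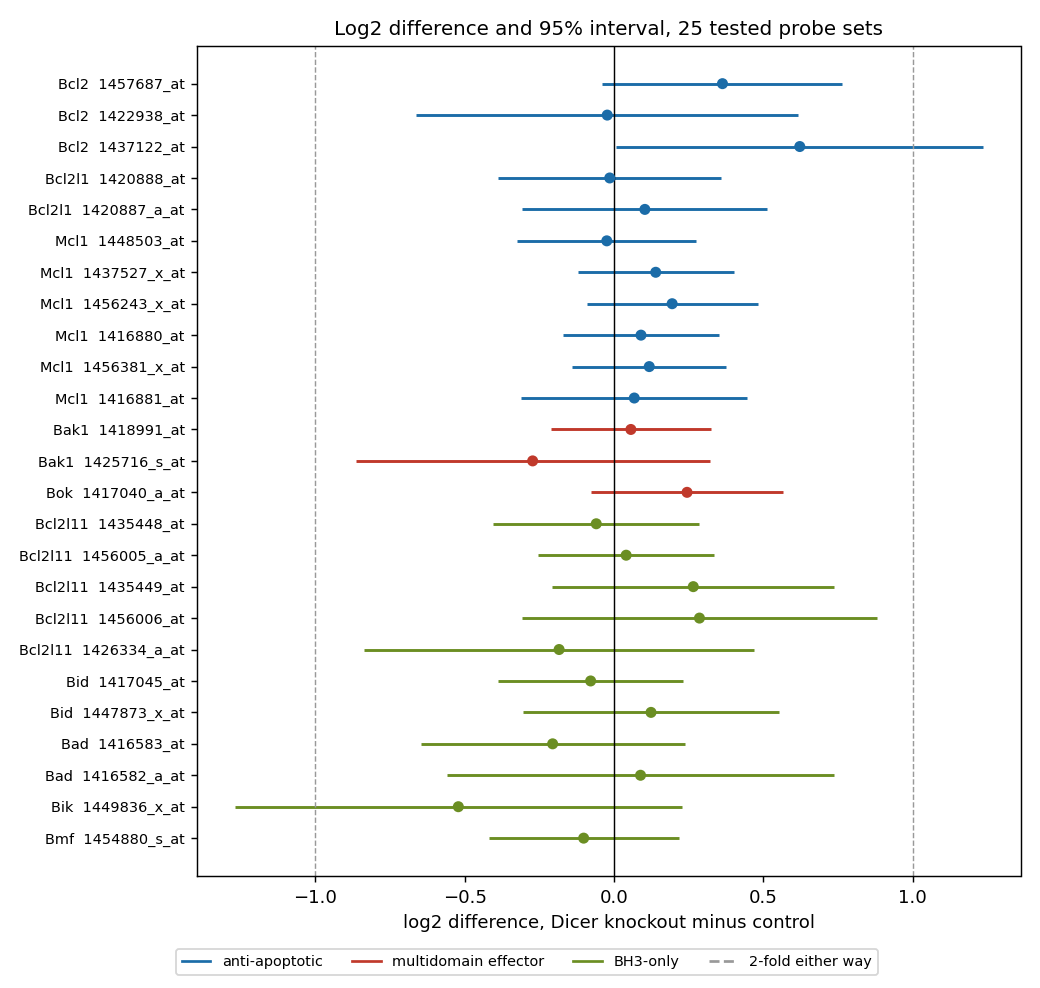
Log2 difference (knockout minus control) of the 25 tested member probe sets, coloured by role, with points for the estimate of the unpaired fit and lines for its 95% interval; dashed lines mark a 2-fold change. Intervals of 24 probe sets include 0, that of the Bcl2 probe set 1437122_at starts at 0.01, and those of this probe set and of Bik (1449836_x_at) cross a dashed line.

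Of the BH3-only members, Bcl2l11 codes for Bim, a potent activator of cell death, and had 5 tested probe sets. The brightest (1435448_at) read 2494.6, 2244.1, 2670.5 and 2937.8 in controls and 1811.7, 2666.1, 2727.3 and 2811 in knockouts. Knockout 1 was the lowest of the 8 arrays and the other knockouts lay among the controls (log2 difference -0.06, SE 0.16, interval -0.40 to 0.29, or 0.756-fold to 1.22-fold). The next (1456005_a_at) read 2140.9, 2434.4, 2913.4 and 2191.4 in controls and 2212.6, 2564.7, 2448.4 and 2692 in knockouts (log2 difference 0.04, SE 0.14, interval -0.25 to 0.34). Both of the brighter probe sets thus had intervals inside a 1.5-fold change, beside 52.6% of all probe sets tested, many of them dimmer. The remaining 3 Bcl2l11 probe sets had wider intervals. Of these, 1435449_at read 763.9, 1237.7, 1165 and 1582.9 in controls and 1132.6, 1463.9, 1242.5 and 1852.2 in knockouts. Array 4 was the highest and array 1 the lowest of each group, and it was higher in 4 of 4 pairs (log2 difference 0.27, SE 0.22, paired SE 0.13, limma paired adjusted p = 0.594). The difference was 0.08 without control 1, 0.41 without control 4 and 0.14 without knockout 4. For 1456006_at the log2 difference was 0.29 (SE 0.27) and for 1426334_a_at it was -0.18 (SE 0.30), the first higher in 4 of 4 pairs and the second in 1.

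Bid links death receptors to mitochondria when caspase 8 cleaves its protein. Its brightest probe set (1417045_at) read 3248.4, 3586.6, 3708.2 and 3385.4 in controls and 2497.5, 3385.5, 3844.6 and 3602 in knockouts. Knockout 1 again lay below all other arrays, and the log2 difference was -0.08 (SE 0.14, interval -0.39 to 0.23), whereas it was 0.05 without that array. The dimmer tested probe set (1447873_x_at), also of the _x_at kind, averaged 936 ± 232 against 1011 ± 153 (SD, n = 4 each), a log2 difference of 0.12 (SE 0.20).

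Bad, which growth factor signalling holds inactive by phosphorylation, was read by 2 probe sets. Their controls ranked in the same order, whereas knockouts 2 and 3 changed places. The brighter (1416583_at) read 4593, 5012.6, 2681.5 and 4755.9 in controls and 3703, 2714.8, 3689.1 and 4438.1 in knockouts. Control 3 lay far below the other controls and knockout 2 was the lowest knockout (log2 difference -0.21, SE 0.20, interval -0.65 to 0.24). The dimmer (1416582_a_at) read 2017.2, 2697.6, 1245.6 and 2655.2 in controls and 2410.8, 2360.1, 1194 and 3407.5 in knockouts. Here array 3 was the lowest of both groups, so that pairing narrowed the SE of the log2 difference of 0.09 from 0.30 to 0.12.

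Bmf, which is held at the cytoskeleton until cells detach, had 1 tested probe set (1454880_s_at). It read 2164.3, 1804.8, 1935.9 and 2041.7 in controls and 1520.1, 2215.9, 2022.6 and 1689.8 in knockouts. Knockouts 1 and 4 lay below all controls and knockout 2 above them (log2 difference -0.10, SE 0.15, interval -0.42 to 0.22). Bik, a BH3-only protein found at the endoplasmic reticulum, was the dimmest member (1449836_x_at), with 323, 456.3, 421.9 and 382.8 in controls and 437.5, 422.6, 100.3 and 181.4 in knockouts. Knockouts 3 and 4 lay below every control while knockouts 1 and 2 lay among them, which gave the largest negative difference and the widest interval among the 25 tested member probe sets (log2 difference -0.52, SE 0.34, interval -1.27 to 0.23, adjusted p = 0.999 by limma, exact two-sided permutation p = 0.343). The difference was -0.22 without knockout 3, and in the paired fit it was -0.19 without pair 3 and -0.82 without pair 1. This _x_at probe set, with probes that can match other sequences, was the only Bik probe set bright enough to be tested.

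The 9 member probe sets too dim to be tested belonged to Bcl2, Bcl2l1, Bid, Bik and Bmf and read 6.1 to 382.4 on single arrays. Their log2 differences were -0.43 to 0.81, and in a fit with no filter the lowest unadjusted p among them was 0.0852 and the lowest limma adjusted p was 0.9998. The highest difference belonged to the Bid probe set 1448560_at, which read 183.9, 89.7, 45.9 and 62.8 in controls and 263.3, 280.7, 43.7 and 382.4 in knockouts. The 2 dim Bik probe sets (1420363_at and 1420362_a_at) shared with the tested one that knockout 3 was the lowest array, at 54 and 24.7.

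Across the tested member probe sets, the arrays numbered 1 tended to the low side. Knockout 1 was the lowest of the 4 knockouts in 13 of the 25 tested member probe sets, beside 24.8% of all probe sets, and control 1 the lowest control in 14, beside 34.9%. Knockout 4 was the lowest in 0 and the highest in 12, beside 27.8% and 27.7% of all. Probe sets of a gene share a transcript, so these counts are not independent, and they were made after the values were seen. With each member by its brightest probe set, knockout 1 was the lowest knockout in 6 of 10. Control 1 was then the lowest control in 3 and control 2 in 4, so a low control 1 did not hold by gene. Knockout 4 was the lowest knockout in 0 of the 10 members and the highest in 4. By role, the median log2 difference within pairs 1 to 4 was 0.21, 0.10, 0.18 and 0.06 for the 3 anti-apoptotic members, 0.07, 0.18, 0.32 and 0.03 for the 2 effectors and -0.37, -0.08, 0.05 and -0.10 for the 5 BH3-only members, each by its brightest probe set. Over all 4 arrays a group, however, 1 of the 3 anti-apoptotic members had a log2 difference above 0, with a median of -0.01. By their brightest probe sets these genes thus showed no common rise, but the signs depended on the probe set. The brightest of Mcl1 and Bcl2l1 lay near 0 (-0.02 and -0.01), and their other tested probe sets above 0 (0.07 to 0.19 and 0.10). The log2 difference of the brightest probe set was above 0 in 2 of 2 effectors (median 0.15) and 0 of 5 BH3-only members (median -0.10), beside 49.6% of all genes. Some dimmer probe sets of Bcl2, Bcl2l1, Mcl1, Bak1, Bcl2l11, Bid and Bad had the other sign. Within pairs 1 to 4, the medians over all genes tested were 0.03, -0.02, -0.04 and 0.01. Same-numbered differences pointed the same way in 4 of 4 pairs for 5 of the 25 member probe sets, beside 16.9% of all. These were 1437122_at of Bcl2, 1437527_x_at and 1456381_x_at of Mcl1, and 1435449_at and 1456006_at of Bcl2l11, all with higher values in knockouts.

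**Figure D3:**
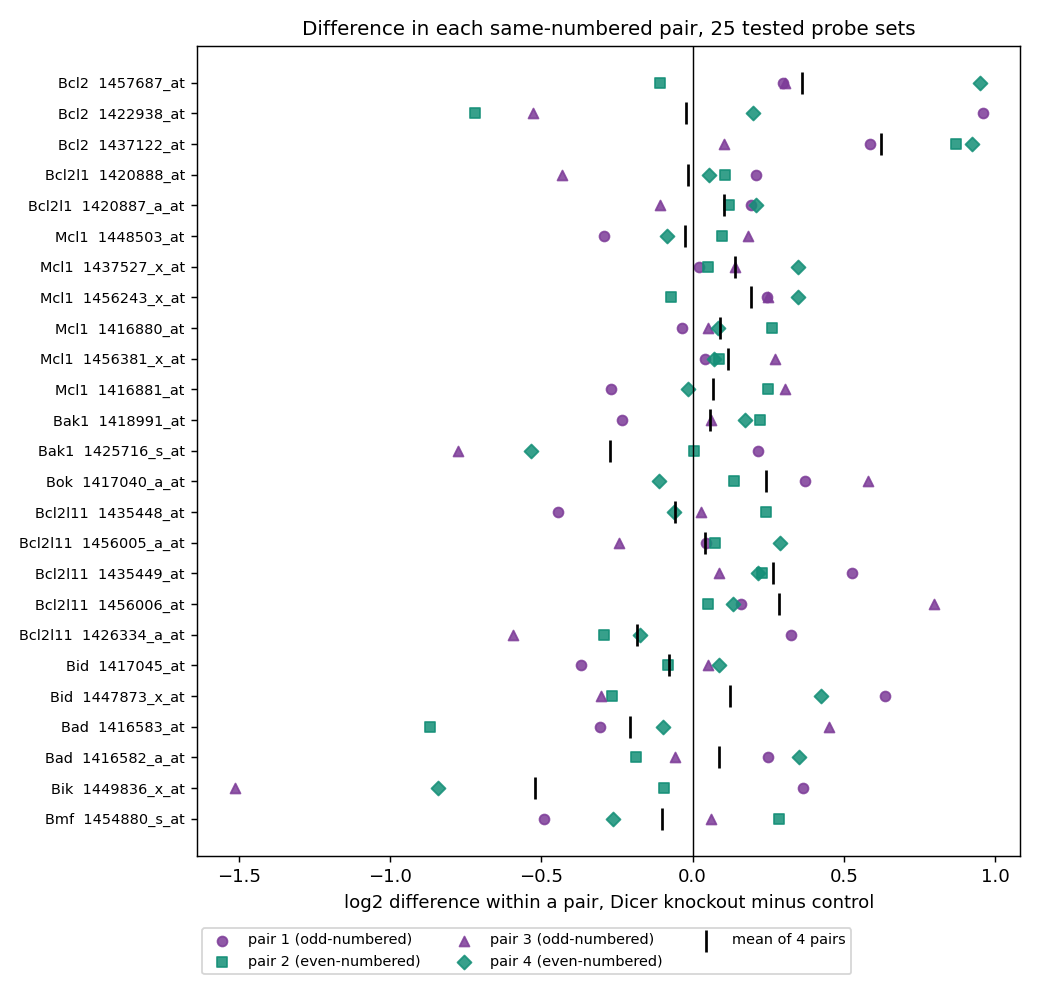
Log2 difference (knockout minus control) within each same-numbered pair for the 25 tested member probe sets; colours separate odd-numbered from even-numbered pairs and black ticks are means of 4 pairs. Points fall on both sides of 0 in 20 probe sets, and the Bik probe set spans the widest range, from -1.51 in pair 3 to 0.37 in pair 1.

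Other genes of the pathway were taken from lists written from textbook knowledge. Of 18 listed relatives of the Bcl2 family, 11 had a tested probe set with 1 symbol, and of 29 genes of the mitochondrial pathway and the caspases, 27 had one. The others were not analysed here. The unpaired limma fit called 0 of these 38 genes, beside 0% of all genes tested, and 0 had an unadjusted p under 0.05, beside 3.93%. The paired fit called 0 too, beside 0.0754%, and 2 had an unadjusted p under 0.05 there, beside 10.3%. Among the relatives, 8 of 11 had a log2 difference above 0, with a median of 0.13, and in the pathway list 16 of 27, with a median of 0.03. Over all genes tested 49.6% were above 0 and the median was -0.0020.

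Of the relatives, the 4 with the smallest unadjusted p were Hrk, Pmaip1, Bcl2l2 and Bbc3. Pmaip1 (1418203_at), the BH3-only gene for Noxa and a p53 target, read 1044.5, 2084.1, 1944.4 and 2030.4 in controls and 1462.9, 2925.8, 2115.1 and 2436 in knockouts. Array 1 was the lowest of each group, and Pmaip1 was higher in 4 of 4 pairs (log2 difference 0.33, SE 0.24, paired SE 0.11, paired unadjusted p = 0.0145, limma paired adjusted p = 0.396). Hrk, a BH3-only gene best known from neurons, averaged 587 ± 282 in controls against 759 ± 101 in knockouts (SD, n = 4 each), a log2 difference of 0.44 (SE 0.29). Within pairs 1 to 4 it was 1.22, -0.01, 0.56 and -0.01, so the difference of Hrk came from the odd-numbered pairs. Bbc3, the p53 target that codes for Puma, and Bcl2l2, an anti-apoptotic relative, had log2 differences of 0.16 (SE 0.19) and 0.19 (SE 0.20).

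In the pathway list the 4 with the smallest unadjusted p were Ywhaz, Apaf1, Casp9 and Htra2. Apaf1 (1452870_at), the scaffold that cytochrome c assembles into the apoptosome, read 3364.6, 4573.2, 4603.3 and 5344 in controls and 4145.8, 5474.9, 5638.6 and 5813 in knockouts. It was higher in 4 of 4 pairs while the groups overlapped (log2 difference 0.24, SE 0.16, paired SE 0.08, paired unadjusted p = 0.0151, limma paired adjusted p = 0.401). Casp9 (1437537_at), the caspase that the apoptosome activates, read 793.6, 846.3, 1226.8 and 1027.5 in controls and 763.1, 699.4, 884.8 and 822.8 in knockouts. It was lower in 4 of 4 pairs, and the groups overlapped as well (log2 difference -0.26, SE 0.17, interval -0.64 to 0.12). Ywhaz, a 14-3-3 protein that binds phosphorylated Bad, averaged 30357 ± 1543 in controls against 33496 ± 1652 in knockouts (SD, n = 4 each), a log2 difference of 0.14 (SE 0.09). Htra2, a protease that mitochondria release, had a log2 difference of 0.16 (SE 0.12).

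**Figure D4:**
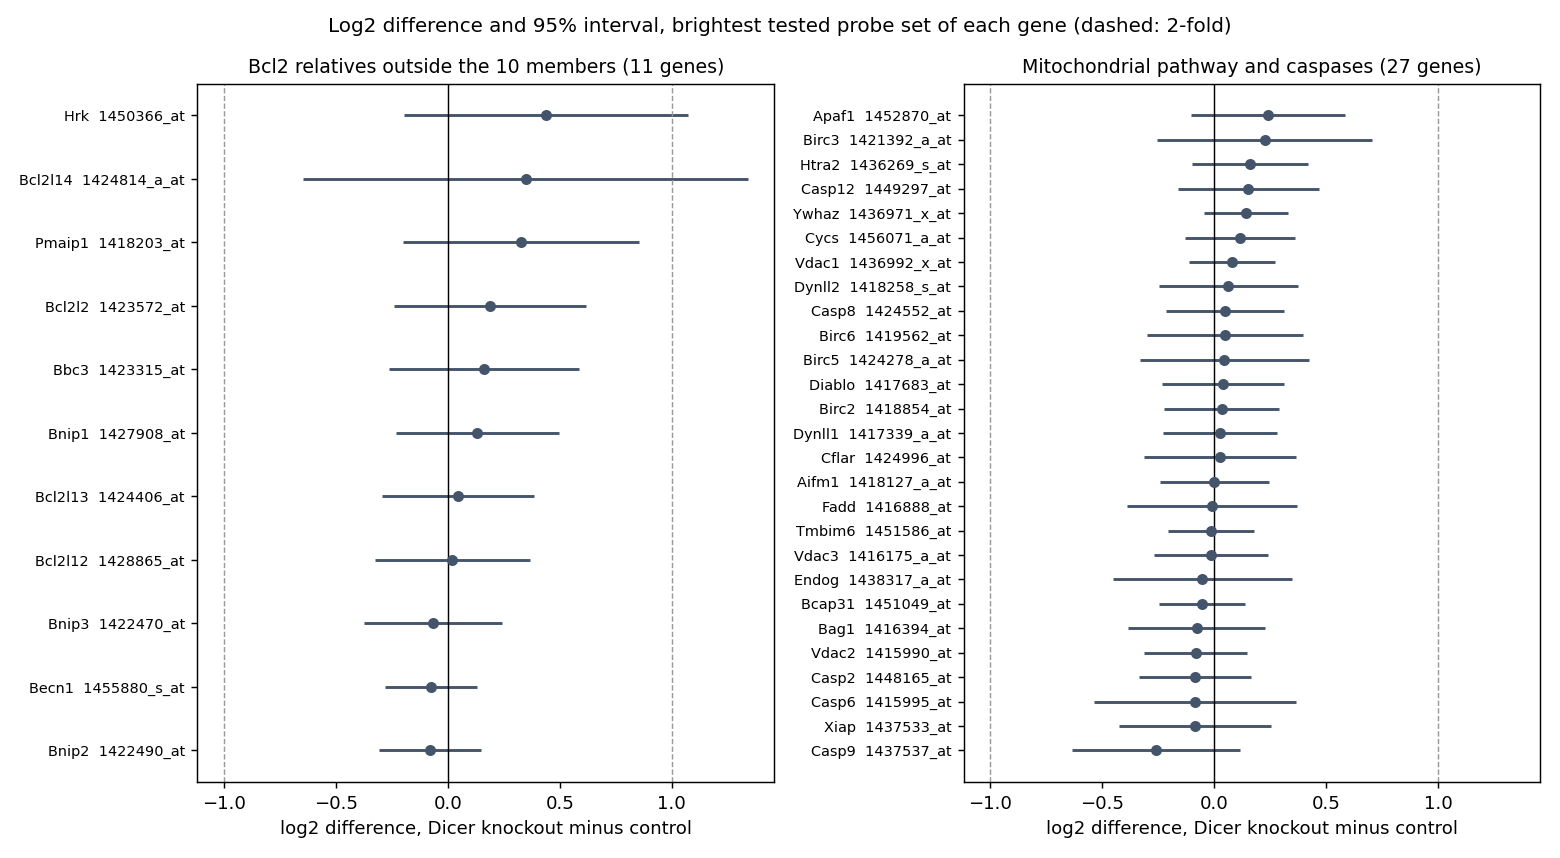
Log2 difference (knockout minus control) with the 95% interval of the unpaired fit for 11 Bcl2 relatives (left) and 27 genes of the mitochondrial pathway and caspases (right), each by its brightest tested probe set; dashed lines mark a 2-fold change. All 38 intervals include 0, and the intervals of Hrk and Bcl2l14 reach past the 2-fold line.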

How the data were processed

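GCOS 1.3 and MAS5 made the values, per the submitters' processing notes. What was deposited is array intensity on a linear scale, 1 signal for each probe set. The 2% trimmed mean, computed here, is 1500 on every array, so each array had been scaled; any further normalization is not stated. Signals were converted to log2(signal + 73.1), where the pseudocount is the 20th percentile of all values and understates differences of dim probe sets. After removal of 64 control probe sets from 45101, the 27026 in the upper 60% by mean entered the test, among them 25 of the 34 member probe sets. The groups were compared in R 4.3.3 with limma 3.58.1 (lmFit, then eBayes with a trend of variance on mean). Tests were two-sided and adjusted by Benjamini-Hochberg over the whole table, with 0.05 as the threshold, after the procedure was tested on simulated data. The brightest tested probe set with 1 symbol stands for a gene. All 34 member probe sets matched their gene in the RefSeq table by gene ID. Pathway genes are named where they had the 4 smallest unadjusted p-values of their list.

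Deviations from the group means correlated at 0.341, 0.189, 0.199 and 0.372 between control and knockout arrays of the same number and at -0.347 to 0.149 between arrays of different number. As every pair exceeds 0.1, the numbers, which the labels give as those of biological replicates without naming the unit, were taken as pairs; the main fit is unpaired. The members and gene lists were chosen with earlier results of these data known. Plots used matplotlib 3.10.9 under Python 3.11.15.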

Additional observations from a re-analysis of the deposited data

Results flagged for a closer look

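In 3 of 50 groups of 4 arrays (25 member probe sets, 2 groups each), 1 array stood apart from the other 3 by Dixon's ratio at its 95% critical value, a rate that chance gives in about 1 of 20 groups. For Mcl1 1437527_x_at, knockout 1 read 8020.8 and the other knockouts 10139.2 to 10338. For Bcl2l11 1435448_at, knockout 1 read 1811.7 and the others 2666.1 to 2811. For Bad 1416583_at, control 3 read 2681.5 and the other controls 4593 to 5012.6.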

How the results depend on the processing

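Under 23 alternatives (2 other array scalings, 2 other pseudocounts, 2 other filters, no trend, array weights, the replicate block with all pairs or without each pair, odd-numbered or even-numbered replicates alone, and each array left out), 0 member probe sets and 0 pathway genes were called. The lowest adjusted p of a member was 0.415, for Bik in the replicate block without pair 1. The replicate block, which is the paired analysis, changed no call (0 member probe sets and 0 pathway genes). The members' median log2 difference of -0.0417 was -0.0983 in odd-numbered and 0.0122 in even-numbered replicates, and -0.125 to 0.0592 with 1 array left out. Of the 25 tested member probe sets, 13 kept their sign under all alternatives in which they were tested, and the other 12 changed it in at least 1; the cause was not tested.

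Log2 differences that changed sign were as follows. With array weights, they were -0.0289 for Bad 1416582_a_at, 0.00799 for Bcl2l11 1435448_at and 0.0378 for Mcl1 1448503_at. In odd-numbered replicates, they were 0.0722 for Bad 1416583_at, -0.0861 for Bak1 1418991_at, 0.216 for Bcl2 1422938_at and -0.0991 for Bcl2l11 1456005_a_at. In even-numbered replicates, they were 0.00305 for Bid 1417045_at, 0.0820 for Bcl2l1 1420888_at, 0.0896 for Bcl2l11 1435448_at, 0.00667 for Mcl1 1448503_at and 0.0115 for Bmf 1454880_s_at. In the replicate block without pair 1, they were 0.0191 (Bid 1417045_at), 0.0696 (Bcl2l11 1435448_at), -0.0474 (Bid 1447873_x_at), 0.0652 (Mcl1 1448503_at) and 0.0280 (Bmf 1454880_s_at). Without pair 2 they were 0.0154 (Bad 1416583_at) and 0.210 (Bcl2 1422938_at), without pair 3 -0.0116 (Mcl1 1416881_at), 0.125 (Bcl2l1 1420888_at) and 0.146 (Bcl2 1422938_at), and without pair 4 -0.0417 (Bcl2l11 1456005_a_at). With 1 array left out, the ranges were -0.143 to 0.370 (Bad 1416582_a_at), -0.0143 to 0.222 (Mcl1 1416881_at), -0.151 to 0.0512 (Bid 1417045_at), -0.171 to 0.0791 (Bcl2l1 1420888_at), -0.232 to 0.208 (Bcl2 1422938_at), -0.123 to 0.0844 (Bcl2l11 1435448_at), -0.0367 to 0.231 (Bid 1447873_x_at), -0.146 to 0.0426 (Mcl1 1448503_at) and -0.0129 to 0.131 (Bcl2l11 1456005_a_at).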
